A study of Danio rerio with 12 samples.

Results

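This account describes how transcripts of the zebrafish pineal gland differed between fish given 1 h of light in their subjective night and fish left in the dark. The members were the arrays labelled light or dark at circadian times CT14, CT18 and CT22, 6 of the 12 arrays of the series; the other 6 came from CT2, CT6 and CT10 in subjective day. Circadian time is counted in hours from subjective dawn. The fish were adult males and females of the line Tg(aanat2:EGFP)Y8, 0.5 to 1.5 years old, in which regulatory regions of aanat2 drive a green fluorescent protein in the pineal gland, so that the gland can be seen when it is removed. Dark and light fish alike carried this transgene. They were reared at 28 °C with 12 h of light and 12 h of darkness and were moved to constant darkness at the end of the day before sampling. The light group received 1 h of light at 12 W/m2 before sampling, and the dark group received none. Each array held RNA from 1 pool of 12 glands, with 1 light and 1 dark array at each time, so the 3 night times stood in for replicates. The RNA was amplified in rounds primed from oligo(dT), which favours the 3' ends of transcripts.

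The fish pineal gland contains photoreceptor cells that detect light directly, hold their own circadian clock and make melatonin at night. In the clock of vertebrates, CLOCK and BMAL proteins activate genes through E-box elements, and period, cryptochrome and BHLHE40-type proteins repress them. Light resets the zebrafish clock in part through light-inducible repressor genes, of which per2 is the best known, and D-box elements bound by TEF and NFIL3 factors take part in this induction. Light also suppresses melatonin output at night, largely through breakdown of the AANAT2 enzyme, which an array of transcripts does not measure.

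Values are deposited MAS5 signals, which are linear and without a physical unit, and differences are light minus dark in log2(signal + 13). The median signal of an array was higher in light at each time, at 70.31 in the dark and 99.48 in light at CT14, 78.0 and 88.1 at CT18, and 94.7 and 96.4 at CT22. Weak genes given below as higher in light, among them muscle markers, clocka, opn4.1 and hsp90aa1.1, have signals in or near this range. The part of the array median in them was not tested beyond fits with arrays centred on their medians and with quantile normalization. Of the markers of the tissue, exorh, aanat2 and crx had signals far above the array medians on every night array. Exorh, the pineal opsin gene, had signals of 720 to 2081, with a median of 1104. Aanat2, which encodes the penultimate enzyme of melatonin synthesis, had signals of 848 to 4099. Crx, a photoreceptor transcription factor gene, had signals of 2095 to 4329. Gnat2 was at 838 to 1687, while otx5 (139 to 301) and gngt2b (52.4 to 205) were weaker. Among markers of other tissues, the red blood cell marker hbaa1 was at 2696 to 10737 and the brain neuron marker snap25a at 605 to 4574. The bacterial and phage transcripts spiked into the hybridisation mix differed between light and dark at CT14 and CT18 but not at CT22. Over 18 spike-in probe sets the mean log2 signal was 9.53 on the dark and 11.18 on the light array of CT14, 9.66 and 10.65 at CT18, and 10.59 and 10.56 at CT22. The ratio of the 3' to the 5' GAPDH control probe set was 26.5 to 103 and was higher in light at CT14 and lower at CT18 and CT22. The part of these array properties in the differences below was not tested beyond the fit with the spike-in level that is given with the calls.

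**Figure D1:**
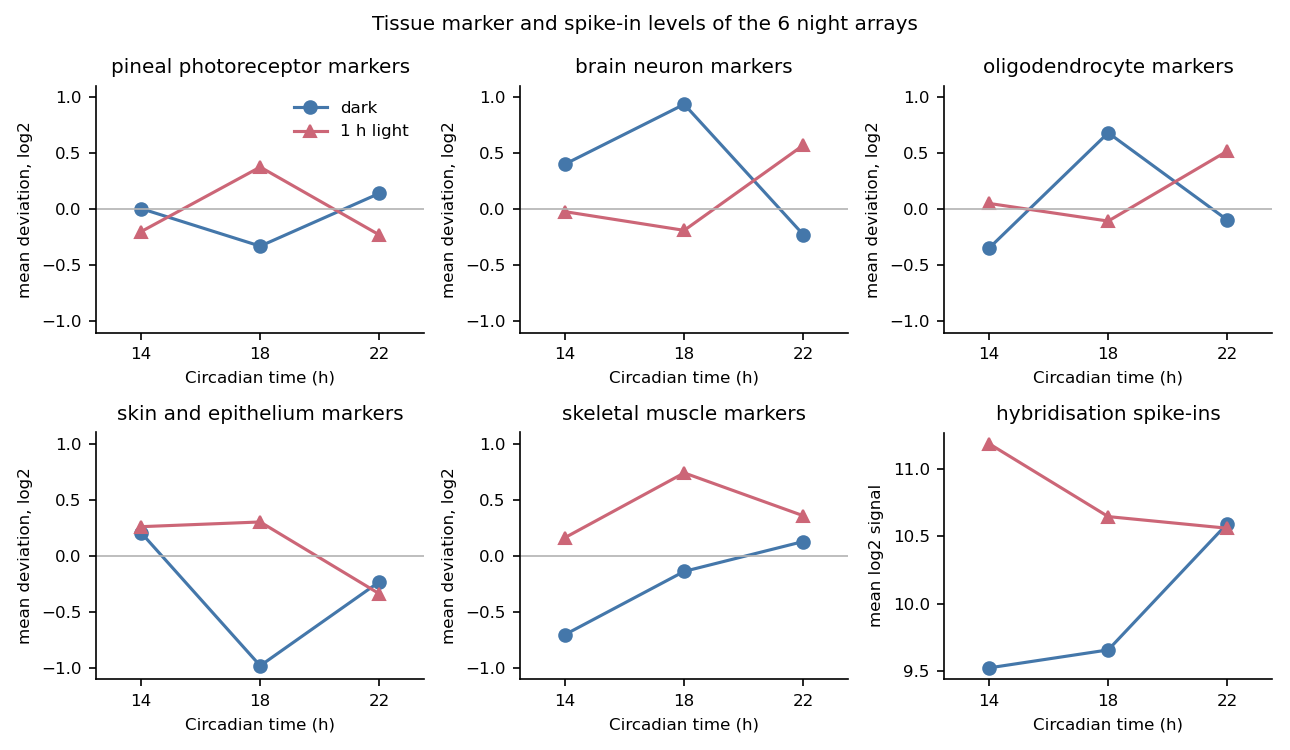
Mean level of 5 marker lists (deviation of each kept gene from its mean over the 12 arrays, log2) and of 18 hybridisation spike-in probe sets (mean log2 signal) on the 6 night arrays against circadian time in hours, 1 array per point, circles dark and triangles light. Brain neuron markers lie lower in light at CT14 and CT18 and higher at CT22, skeletal muscle markers lie higher in light at all 3 times, and the spike-ins part light from dark at CT14 and CT18 only.

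Markers of neighbouring tissues had signals that differed between the arrays, as the plot of marker levels shows. Whether the pools held cells of those tissues was not tested. The muscle markers were weak, with signals in or near the range of the array medians. The 17 kept brain neuron markers, of 41 listed, summed to signals of 23872, 28590 and 14119 in the dark at CT14, CT18 and CT22 and to 14026, 14108 and 27277 in light. They were thus lower in light at the first and second of these times and higher at the third. The 29 kept skin and epithelium markers, of 44, summed to 11056, 3247 and 5508 in the dark and to 8434, 8286 and 5117 in light, with the dark pool of CT18 the lowest. The 12 kept skeletal muscle markers, of 35, summed to 678, 1053 and 1279 in the dark and to 1269, 2221 and 1578 in light. None of the kept genes of these lists was at 0, and the lowest signals were 42.9 for the neuron, 11.9 for the skin and 16.4 for the muscle list. In bulk samples such as these, fewer cells of a type and less RNA per cell cannot be told apart. The part of these tissues in the differences below was not tested, other than by the fits named where they matter.

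Light in subjective night was followed by higher pfkfb4b, LOC567909 and jun and by a lower level of 1 probe set that has no gene symbol, by limma with the time point as a block (threshold of 0.05 on the adjusted p, 9301 probe sets). These were all the calls, 3 probe sets higher (0.0323% of those tested) and 1 lower (0.0108%), each with an adjusted p of 0.0392. Without adjustment, 1033 probe sets had a p under 0.05.

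Jun encodes a subunit of the AP-1 transcription factor and is an early-response gene in many cell types. Its signal was 237.2, 199.4 and 205.7 in the dark at CT14, CT18 and CT22, and 613.5, 565.1 and 640 after light. The groups did not overlap, as was so for 6.54% of all 6025 genes on the higher and 4.73% on the lower side. All 3 light values also lay above all 6 dark values of the series. The share of all genes that lay beyond all 6 dark values, here and for the genes below, was not counted. Jun rose by 1.45 ± 0.20 log2 (mean of n = 3 pairs), which is 2.73-fold, with nearly equal differences of 1.32, 1.44 and 1.58 at the 3 times. Here and below, ± gives the SE of the limma fit to all arrays of the series, day pairs included. This SE is not the spread of the 3 night differences.

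Pfkfb4b encodes a bifunctional enzyme that makes and breaks down fructose 2,6-bisphosphate, an activator of glycolysis. Its signal was 1046.4, 928.8 and 1897.3 in the dark and 2803.8, 5699.7 and 6327.5 after light. Every light value lay above every dark value, and both dark and light levels were highest at CT22. Pfkfb4b rose by 1.91 ± 0.26 log2 (3.77-fold), by 1.41 at CT14, 2.60 at CT18 and 1.73 at CT22.

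LOC567909 is a gene to which the tables used here give no name or role. Its signal was 153.1, 164.3 and 313.2 in the dark and 387.5, 1265 and 1415.1 after light. The groups did not overlap, with the light array of CT14 the nearest to the dark ones. LOC567909 rose by 2.08 ± 0.27 log2 (4.24-fold), by 1.27, 2.85 and 2.13. The probe set without a symbol had signals of 555.9, 417.2 and 431.2 in the dark and 188.2, 39.2 and 88.7 after light. It fell by 2.22 ± 0.28 on the log2 scale (4.67-fold lower), with differences of -1.50, -3.04 and -2.13, and its groups did not overlap.

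The number of calls was not stable. Limma called 260 probe sets without the CT22 pair, 2 without CT14 and 0 without CT18, and it called 0 with the spike-in level as a covariate (smallest adjusted p = 0.210), where jun was at 1.53 ± 0.30 and pfkfb4b at 2.12 ± 0.40. It also called 0 with skin markers as a covariate (smallest adjusted p = 0.0713), with the 6 night arrays alone (0.240) and without an intensity trend (0.108). The same count of 0 was found with arrays centred on their medians (0.0518) and without the pair of CT2, CT6 or CT10 (0.078 to 0.106). Limma called 5 with brain neuron markers as a covariate. It called 13 where cosine and sine terms of circadian time took the place of the time block.

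**Figure D2:**
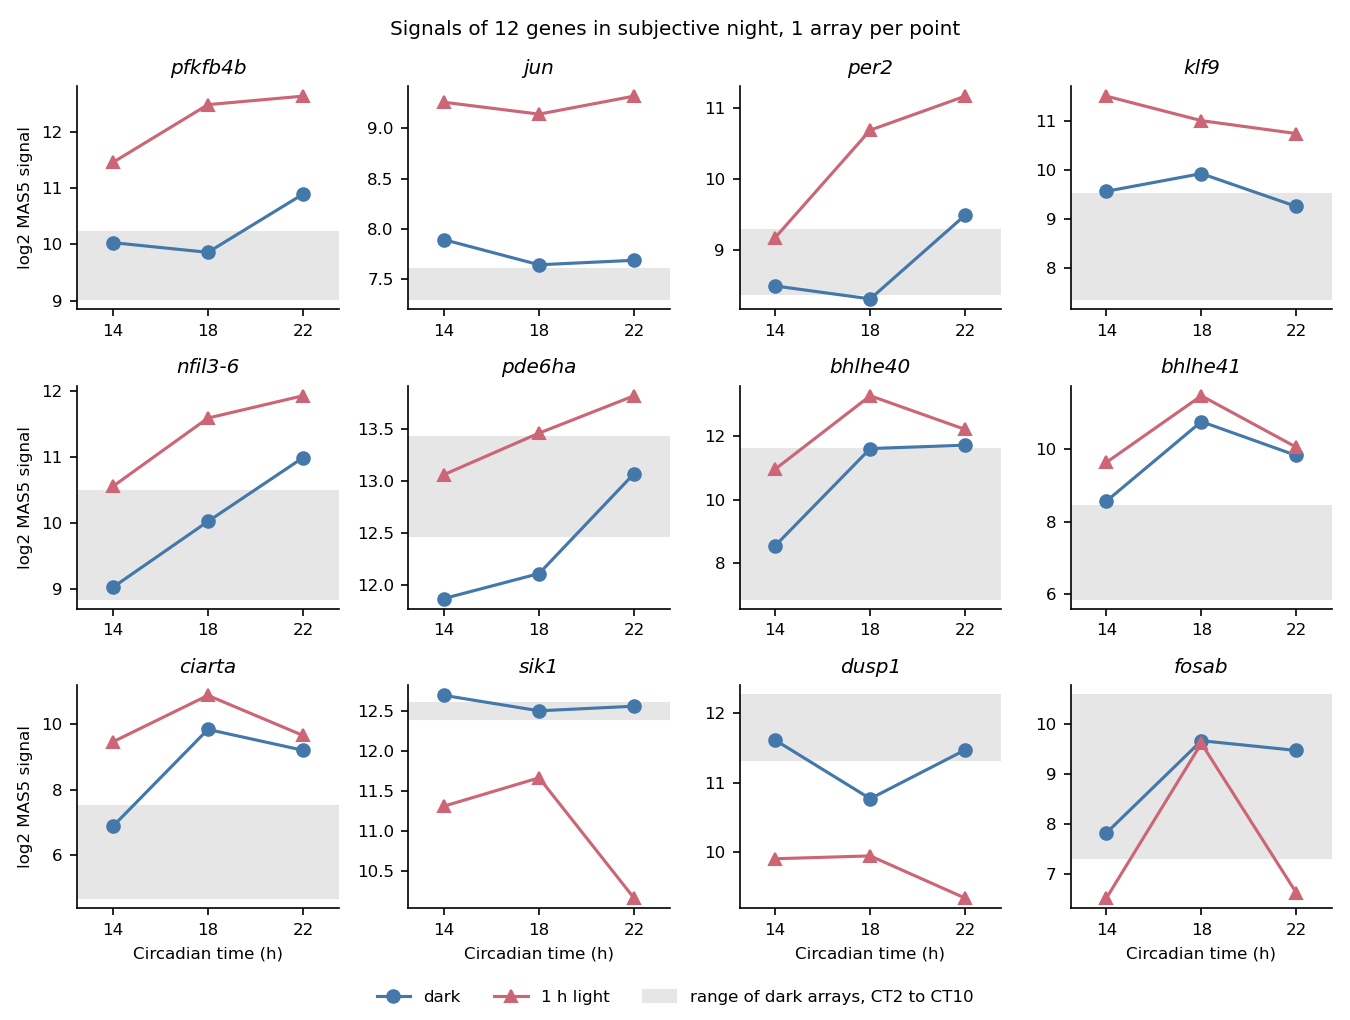
Log2 MAS5 signal of 12 genes against circadian time in hours in subjective night, 1 array per point, circles for dark and triangles for 1 h of light; the grey band is the range of the 3 dark arrays of subjective day. Jun, klf9 and pfkfb4b in light lie above all dark points and the band, sik1 and dusp1 in light lie below them, and the light and dark points of bhlhe40, bhlhe41 and ciarta draw together from CT14 to CT22.

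The genes next in order of p on each side, with the same direction at all 3 times, did not pass the threshold and are given as values. Each side was filled to the same number of genes with a symbol, called genes included. The numbers of genes given therefore do not compare the sides. On the higher side these were si:rp71-1c10.7 (1.55 ± 0.23 log2, adjusted p = 0.055 by limma), nfil3-6 (1.33 ± 0.22), pde6ha (1.09 ± 0.20), klf9 (1.49 ± 0.28), per2 (1.55 ± 0.29), zgc:113184 (1.03 ± 0.20) and bhlhe40 (1.51 ± 0.30), with adjusted p up to 0.140. Si:rp71-1c10.7, an uncharacterised gene, had signals of 110, 96.3 and 87.6 in the dark and 338.6, 359.7 and 248.8 after light. Like jun, it was a gene whose light and dark groups were more than 1 log2 apart, with a gap of 1.09 against 1.21 for jun, and no other gene with 1 symbol was past that mark.

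**Figure D3:**
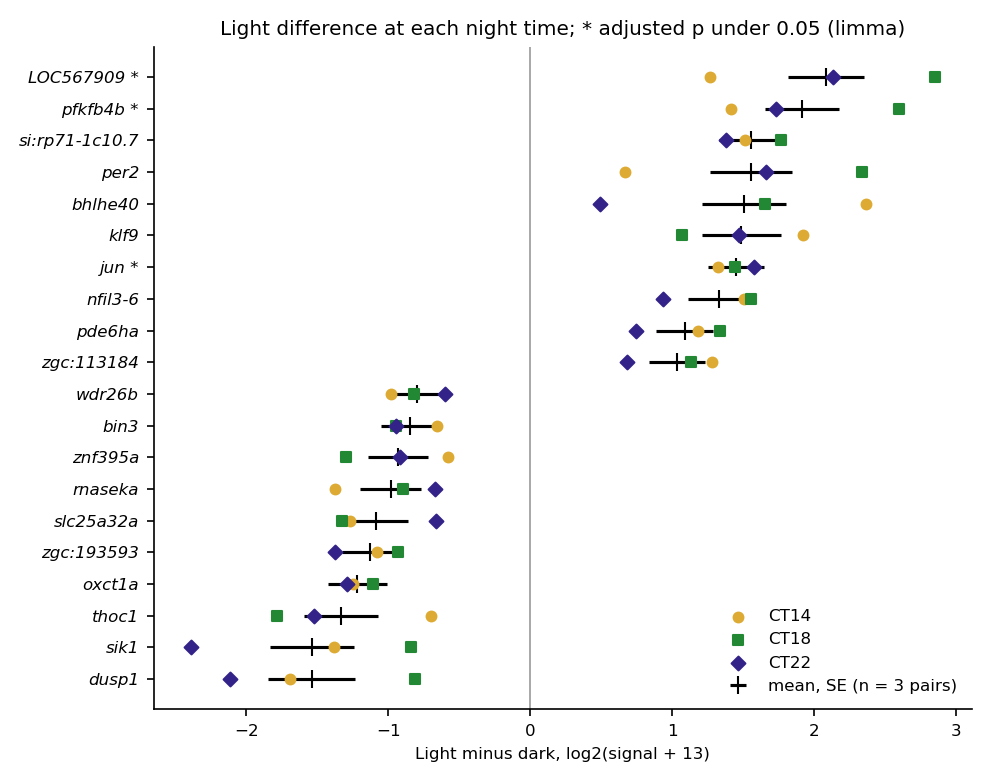
Light minus dark in log2(signal + 13) for the 3 genes with a symbol that passed the threshold (asterisk) and 17 further genes. These are the next in order of p on the higher and on the lower side, with the same sign at all times. Each side was filled to the same number of genes, called genes included. Higher genes with a smaller p than the last lower ones, such as tagln2, are therefore left out. Coloured points are the differences at CT14, CT18 and CT22. The black bar is their mean (n = 3 pairs) with the SE of the limma fit to all arrays, not the SE of the 3 points. The differences of jun and oxct1a nearly coincide, those of bhlhe40 run from 2.37 at CT14 to 0.49 at CT22, and those of sik1 and dusp1 are largest at CT22.

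On the lower side the genes were oxct1a (-1.22 ± 0.21 log2), zgc:193593 (-1.13 ± 0.20), sik1 (-1.54 ± 0.30), dusp1 (-1.54 ± 0.30), thoc1 (-1.33 ± 0.26), slc25a32a (-1.09 ± 0.22), rnaseka (-0.98 ± 0.21), znf395a (-0.93 ± 0.21), bin3 (-0.85 ± 0.20) and wdr26b (-0.80 ± 0.20), with adjusted p from 0.100 to 0.204 by limma. Oxct1a encodes a mitochondrial enzyme that lets cells use ketone bodies. Its signal was 656.2, 774.3 and 621.8 in the dark and 268.1, 352.5 and 246.2 after light. All 3 light values lay below all 6 dark values of the series, and the differences at the 3 times were close to each other, at -1.25, -1.11 and -1.29. Thoc1, of the THO complex that couples transcription to mRNA export, had signals of 155.9, 219.4 and 120.9 in the dark and 91.3, 54.5 and 33.6 after light. Slc25a32a, a carrier that brings folate into mitochondria, had a difference of -0.66 at CT22 against -1.27 and -1.33 before. For wdr26b, another kept probe set gave 0.47, so its direction depends on the probe set.

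The period and cryptochrome genes and the E-box repressors had positive night differences in all 7 kept genes, and none was called. Per2 was at 358.8, 316.2 and 717.5 in the dark and at 576.3, 1648.2 and 2298.2 after light. Its light value at CT14 lay within the dark range and its other 2 lay above all 6 dark arrays. The differences of per2 were 0.66, 2.34 and 1.66, against a mean of 1.69 in subjective day. Cry1a, a cryptochrome gene that light can induce in zebrafish, differed by 0.44 ± 0.26 (0.67, -0.18 and 0.83). Cry2 differed by 0.52 ± 0.23. The 4 kept genes of this list, of 14 listed, had a median of 0.57, and 3 were higher in light at all 3 times; over all 6025 genes the median was 0.02, and 15.35% were higher and 12.17% lower at all 3 times.

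Bhlhe40 encodes a basic helix-loop-helix repressor that competes at E-boxes. Its signal was 374.7, 3112.6 and 3348.3 in the dark, and 1987.6, 9835 and 4717.9 after light. The dark level was low at CT14 and about level at CT18 and CT22, and the differences were 2.37, 1.66 and 0.49. Ciarta, the gene of another repressor of the CLOCK and BMAL pair, was at 118, 910.4 and 587.1 in the dark and at 700.7, 1867.6 and 802.3 after light. The differences of ciarta were 2.45, 1.03 and 0.44, and those of bhlhe41 were 1.04, 0.71 and 0.22. So in all 3 of these repressors the difference was largest at CT14, where the dark level was lowest, and smallest at CT22. The spike-in difference between light and dark had the same order over the times, and with the spike-in level as a covariate the median of the list was 0.15 instead of 1.30. Light arrays had the higher spike-in level at every time of the series but CT22, so light and spike-in level cannot be told apart by that fit. The part of the spike-in level in these differences was not tested otherwise.

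The D-box factors differed from each other in value, and none was called. Nfil3-6, a bZIP repressor gene, was at 521.6, 1041 and 2032.2 in the dark and at 1504.7, 3081.1 and 3894.8 after light. Each light value was above its own dark value, by 1.51, 1.55 and 0.93, while the dark level itself climbed over the night to exceed the light level of CT14. Nfil3-5, a gene of the same family, had differences of -0.33, -0.99 and 0.89 and a mean of -0.14 ± 0.39. In subjective day its mean difference was 1.50. Tefa, an activator at D-boxes, differed by 0.23 ± 0.22. The 3 kept genes had a median of 0.23, which became 0.77 with the spike-in level as a covariate.

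Of the 8 kept clock activators and nuclear receptor genes, 6 were positive (median 0.22), and clocka was the 1 that was higher at all 3 times. Clocka was at 39.4, 72.7 and 112 in the dark and at 136.9, 114.2 and 168.8 after light (0.88 ± 0.29 log2). Npas2, a relative of clocka, ran from 2.12 at CT14 to -0.50 at CT22. Of 9 kept casein kinase and F-box regulators, which set the stability of period and cryptochrome proteins, 2 were higher and 2 lower at all times (median 0.08). Fbxl3a, which marks cryptochromes for breakdown, differed by -0.62 ± 0.24, and fbxw11a by 0.51 ± 0.21.

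No melatonin, opsin or phototransduction gene was called. Aanat2 was at 2728.1, 1917.1 and 1578.8 in the dark and at 1374.9, 4099.1 and 848.4 after light. Its light level was lower at CT14 and CT22 and higher at CT18, by -0.98, -0.89 and 1.09, and its mean was -0.26 ± 0.37. Exorh had the same pattern, with differences of -0.29, 1.43 and -0.84. The medians of the 9 kept pineal photoreceptor markers, of 15, had the same pattern, at -0.29, 0.61 and -0.52. Their night median was 0.02. Gnat2, the cone transducin gene, was 1 of these markers, at -0.68, 0.68 and -0.56. Among the markers, crx departed from the pattern and was higher in light at every time (0.69, 0.47 and 0.43). Gngt2b also departed from it, being higher at CT14 and CT18 and lower at CT22 (0.73, 0.61 and -0.52). The other markers were lower at CT14 and CT22 and higher at CT18. Skin markers were lowest and brain neuron markers highest in the dark pool of CT18, the pool in which exorh was lowest.

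Of the 11 kept melatonin enzymes and pineal factors, 3 were positive, 1 was higher and 2 were lower at all 3 times (median -0.09). Tph1a, which encodes an enzyme that starts serotonin synthesis, was at 1673.6, 1186 and 1135.9 in the dark and at 1183.6, 1054.8 and 551.3 after light (-0.56 ± 0.21 log2), and its other probe set gave -0.75. Tph2, the gene of another such enzyme, had higher signals of 4089 to 6851 and differed by 0.24 ± 0.20. Crx differed by 0.53 ± 0.21. Of 22 kept phototransduction genes 15 were positive (median 0.16), and 5 were higher and 1 was lower at all times. Pde6ha, the gene of a cone phosphodiesterase inhibitory subunit, was at 3755.9, 4431.3 and 8591.9 in the dark and at 8538.8, 11237 and 14392 after light. The light value of CT14 was just below the dark value of CT22, so the groups overlapped by these arrays, and the other kept probe set of pde6ha gave 0.98 against 1.09. Gnb3b, a G protein subunit gene, differed by -0.55 ± 0.20.

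The 12 kept opsin and visual cycle genes had 9 positive differences (median 0.18). The opsin genes opn1sw2 (1.06 ± 0.25) and opn4.1 (0.87 ± 0.35) were each higher in light at all 3 times, and opn1lw1, the red cone opsin gene, was lower (-0.38 ± 0.17). The dark night mean of opn4.1, 6.07 log2, was below the mean of 6.16 over light and dark arrays that a kept gene needed. Opn1lw1 had signals of 4027.3, 1632.5 and 1148.9 in the dark and 3267.3, 1251.6 and 829.4 after light, so it differed less between light and dark than between CT14 and CT22. Opn1sw2 and opn1lw1 are also among the 8 kept retinal rod and cone markers, of which 6 were positive (median 0.22).

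Jun and fosab, whose proteins can pair as AP-1, had differences of opposite sign. Fosab, the c-Fos gene, was at 225.7, 814.5 and 711.4 in the dark and at 91.1, 785 and 98 after light. The light arrays of CT14 and CT22 were below all 6 dark arrays, while that of CT18 was level with its dark partner. The mean of fosab was -1.32 ± 0.41 (adjusted p = 0.300 by limma), and its other probe set gave -0.57. In the list of 12 kept AP-1 and ATF genes, 1 was called (jun), 2 were higher and 4 lower at all 3 times, and the median was 0.03. That median was 0.41 without the CT22 pair, -0.23 without CT18 and -0.29 with the spike-in level as a covariate.

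Sik1 encodes a kinase whose gene is induced by cAMP and which restrains CREB-driven transcription. Its signal was 6638.1, 5805.7 and 6041.4 in the dark, an almost constant level, and 2537.4, 3244.3 and 1141.1 after light. Dusp1, a phosphatase that turns off MAP kinases, was at 3136.6, 1748.4 and 2844.3 in the dark and at 960.4, 988.2 and 648.3 after light. For both genes every light value lay below all 6 dark values of the series, a property that was not counted over all genes. The differences were -1.38, -0.84 and -2.39 for sik1 and -1.69, -0.81 and -2.11 for dusp1, and both were largest at CT22. Neither passed (adjusted p = 0.140 for each by limma). Sik1 was called with brain neuron markers as a covariate (-1.75 ± 0.21, adjusted p = 0.0291 by limma) but not with skin markers (0.0713) or the spike-in level (0.398). Both genes were called by limma where cosine and sine terms of circadian time took the place of the time block (adjusted p = 0.0468 for each). Of the 18 kept cAMP and MAP kinase brakes, 1 was higher and 5 were lower at all times, and the groups did not overlap for 3 lower and 0 higher genes. Over all genes 4.73% were separated on the lower side.

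The list of egr, nr4a, klf and other early-response genes, which also holds kinase, cytokine-signalling and growth factor genes, held no call. Of its 42 kept genes 27 were positive, 64.3% against 53.0% of all genes (median 0.18), and 10 were higher and 3 lower at all times. The groups did not overlap for 5 on the higher and 1 on the lower side, against 6.54% and 4.73% of all genes. The list's median was -0.19 with the spike-in level as a covariate. Klf9, a zinc finger factor that glucocorticoids induce in many tissues, was at 757.4, 972.5 and 610.9 in the dark and at 2908.1, 2056.1 and 1712.8 after light. All its light values exceeded all 6 dark values (1.92, 1.07 and 1.47 log2). Egr2a, of a zinc finger family induced by many stimuli, differed by 1.12 ± 0.32 from low signals of 40.3 to 63.4 in the dark. Its dark night mean of 6.03 log2 was below the mean of 6.16 over light and dark arrays that a kept gene needed.

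The glucocorticoid-linked list overlaps with the lists already described: its call was pfkfb4b, and klf9 and dusp1 are in it. Fkbp5, a co-chaperone of the glucocorticoid receptor, was at 825.5, 757.3 and 964.2 in the dark and at 2149.6, 1887.7 and 1557 after light. The groups of fkbp5 did not overlap (1.37, 1.30 and 0.68, mean 1.12 ± 0.26, adjusted p = 0.202 by limma). Of the 18 kept genes, 11 were positive (median 0.08), 4 were higher and 3 lower at all times. The median was -0.01 without the CT18 pair and 0.28 without CT22.

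The metabolic and stress lists had medians between -0.10 and 0.07 and differed in their counts. Of 32 kept glycolysis and glucose transport genes, 1 was called (pfkfb4b), 17 were positive (median 0.01), and 5 were higher and 4 lower at all times. Of 49 heat shock and folding genes, 29 were positive (median 0.07), with 7 higher and 7 lower at all times. Hsp90aa1.1, a cytosolic chaperone gene, was low throughout, at 47.2, 17.5 and 67.7 in the dark and 144.1, 110.8 and 162.7 after light (1.51 ± 0.33). Its dark night mean of 5.73 log2 was below the mean of 6.16 over light and dark arrays that a kept gene needed. Serpinh1b, a collagen chaperone gene, differed by -0.95 ± 0.30. Of 16 photolyase and DNA repair genes 6 were positive, 37.5% against 53.0% of all genes (median -0.05). Cry5, the (6-4) photolyase gene, differed by 1.18, 0.47 and 0.37 (mean 0.67 ± 0.29), and its other probe set by 0.32. Ercc3, a repair helicase gene, differed by 0.22, -1.04 and -1.55 (mean -0.79 ± 0.36).

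Of 32 kept antioxidant and glutathione genes, 13 were positive, which is 40.6% (median -0.10). Ggctb, of glutathione breakdown, was at 893.9, 379.7 and 76.6 in the dark and at 302.5, 117 and 45.9 after light, a fall over the night in both groups. Its light difference was -1.24 ± 0.32. That of gsto2, a glutathione transferase gene, was -1.07 ± 0.37 but changed direction between times (-2.08, 0.21 and -1.35). Of 27 sterol and fatty acid genes 12 were positive (median -0.08), with 3 higher and 7 lower at all times; the 7 are 25.9% of the list, against 12.17% of all genes. Fads2, a fatty acid desaturase gene, differed by -0.81 ± 0.27, and msmo1, a sterol synthesis gene, by 0.79 ± 0.27.

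**Figure D4:**
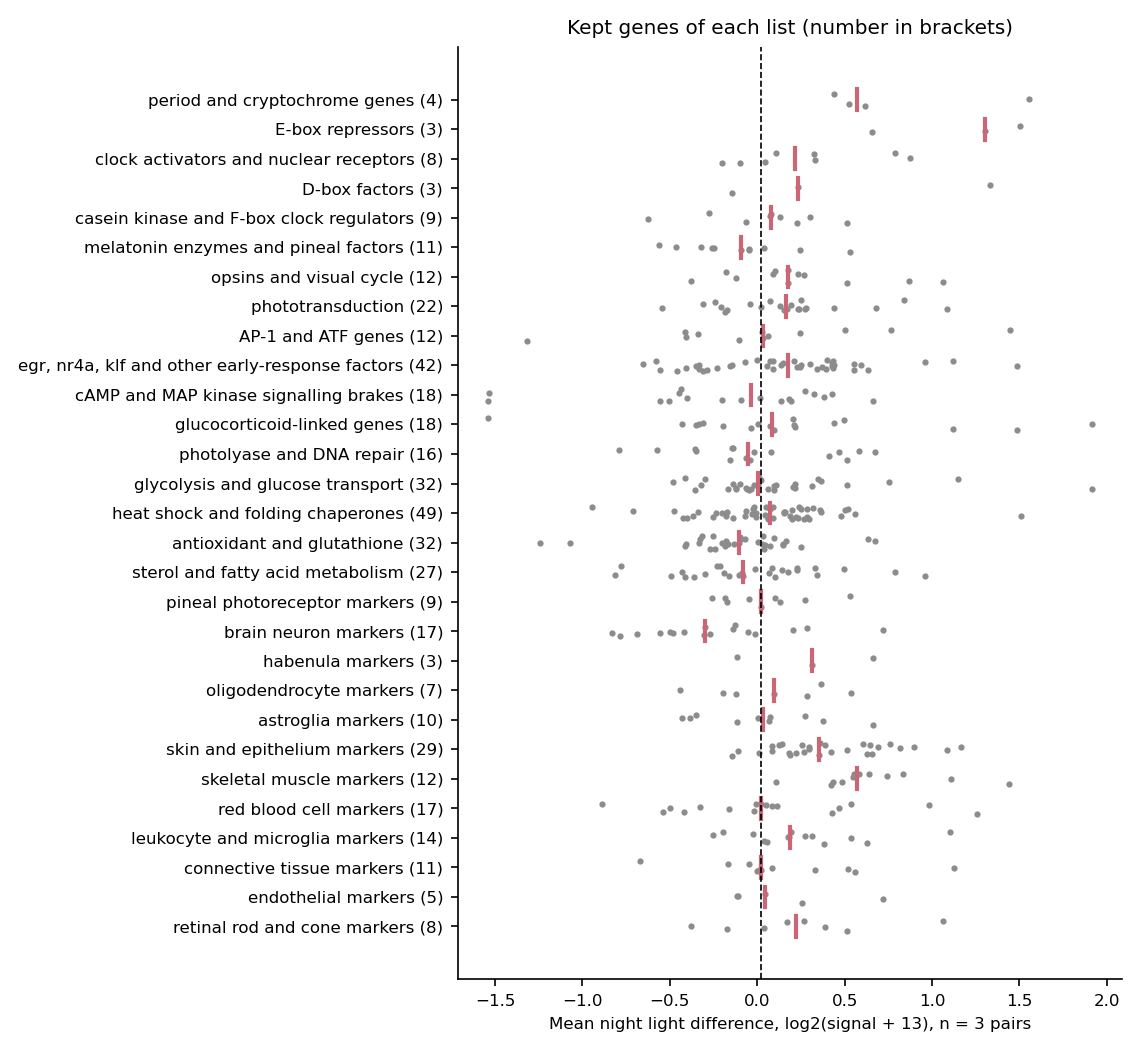
Mean night light difference in log2(signal + 13) (n = 3 pairs) of every kept gene of 29 lists, 1 grey point per gene, with the list median as a red bar and the median of all 6025 genes (0.02) as a dashed line. The E-box repressors, period and cryptochrome genes and skeletal muscle markers have all points above 0, brain neuron markers have 14 of 17 points below 0, and most other lists spread on both sides of the line.

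In the plot of the lists, the skeletal muscle, skin and brain neuron markers each lay mostly on 1 side. All 12 kept skeletal muscle markers, of 24 on the array, were positive (median 0.57), against 53.0% of all genes. Of these, 9 were higher at all 3 times, against 15.35% of all genes. A weak gene can be kept through its light values, so these counts are not free of the filter. Acta1a, a muscle actin gene, was at 21.3, 38.1 and 95.9 in the dark and 128.3, 136.6 and 166.9 after light. Its dark night mean of 5.85 log2 was below the mean of 6.16 over light and dark arrays that a kept gene needed. Ckmb, a creatine kinase gene, differed by 1.11 ± 0.25. Of 29 skin and epithelium markers 27 were positive (median 0.36), but the medians by time were -0.02, 0.97 and -0.10, so the difference lay at CT18. Krt94, a keratin gene, differed by 0.82 ± 0.33, and fgfbp2a by 1.43, 1.92 and -0.10. Of 17 brain neuron markers 3 were positive (median -0.30), and the medians by time were -0.65, -0.75 and 0.67. The 2 neuron markers with the smallest p did not have this order. Nsg2 was lower in light at all 3 times (-0.48 ± 0.20). Gria2b, a glutamate receptor gene with weak signals, was higher at all 3 (0.72 ± 0.30).

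The remaining marker lists had medians between 0.02 and 0.31. Of 3 habenula markers 2 were positive (median 0.31; kctd12.2 0.66, chrnb3a 0.31), and with the spike-in level as a covariate the median was -0.04. Of 7 oligodendrocyte markers 4 were positive (median 0.10), with 0.65 as the median without CT18. Nkx2.2a (mean 0.54) and cldnk (mean 0.29) were higher in light at CT14 and CT22 and lower at CT18. Of 10 astroglia markers 6 were positive (0.04); the glial genes gfap (0.66 ± 0.24) and fabp7a (0.38 ± 0.18) each had all 3 light values above all 6 dark ones. Of 17 red blood cell markers 9 were positive (0.02). Cahz, a carbonic anhydrase gene, differed by -0.89 ± 0.24 and slc25a37, a mitochondrial iron carrier gene, by 0.98 ± 0.36. The dark night mean of slc25a37, 6.00 log2, was also below the 6.16 that a kept gene needed over light and dark arrays. Of 14 leukocyte and microglia markers 11 were positive (0.19), and spi1b differed by 0.63 ± 0.25. Mmp9 was at 49.1 to 55.7 in the dark and 116 to 143.6 after light. Its dark night mean of 6.03 log2 was below the mean of 6.16 over light and dark arrays that a kept gene needed. Of 11 connective tissue markers 7 were positive (0.02). Tagln2 was at 227.4, 339.4 and 370 in the dark and 521.9, 892.7 and 683.7 after light (1.13 ± 0.23). Timp2a differed by -0.89, -1.16 and 0.04 (mean -0.67 ± 0.26). Of 5 endothelial markers 3 were positive (median 0.05). Aqp8a.1 (mean 0.72) and fli1 (mean 0.26) were higher in light at CT14 and CT18 and lower at CT22.

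Across the whole array the differences at the 3 night times were weakly related to each other. Over the 9301 probe sets the differences at CT14 and CT18 correlated with r = 0.35, those at CT14 and CT22 with r = -0.08 and those at CT18 and CT22 with r = -0.17; these are descriptions over probe sets of the same 6 arrays. A difference of at least 1 log2 was seen in 514 genes on the higher and 248 on the lower side at CT14, in 264 and 249 at CT18, and in 198 and 160 at CT22. The arrays of CT14 also differed most in median signal (70.31 dark, 99.48 light) and in spike-in level (9.53 and 11.18). The part of these array properties in the counts was not tested. The SD of the differences was 0.71, 0.64 and 0.55 log2 at the 3 times.

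Some genes had a large difference, of at least 1.5 log2, at 1 time with less than 0.5 in that direction at the other times. These rest on 1 array against 1 array and have no test. At CT14, 62 genes were on the higher side, led by zp3f.1 (2.72), ubfd1 (2.37), tex10 (2.33) and egr2b (2.31), all with dark signals of 7.2 to 33.4 at that time. The 24 on the lower side were led by igldcp (-2.50), mhc1ufa (-2.48), si:dkey-19a16.4 (-2.47) and si:dkey-193p11.2 (-2.40). At CT18, 33 were higher, led by si:dkey-193p11.2 (3.77), krt91 (3.07), pkp3a (2.95) and gpa33a (2.91). Krt91, a keratin gene, and pkp3a, a desmosome gene, are among the skin markers, and krt91 was at 58.3 in the dark and 583.6 after light at CT18. The 35 lower genes at CT18 were led by emx2 (-3.42), cd59a (-3.07), rac3a (-2.89) and atf5a (-2.88). At that time gpa33a was at 7.2 in the dark and rac3a at 13.5 in light, beside the 13 added to each signal.

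At CT22, 52 genes were higher, led by nppcl (5.42), cbln1 (4.31), neurod6b (3.58) and cdk5r2a (3.07). Cbln1, neurod6b and cdk5r2a are known from neurons, and none of them is in the neuron list used here. Cbln1 was at 617.4, 309.7 and 45.4 in the dark and 102.3, 69.4 and 1147 after light. So the light pool was lower at CT14 and CT18 and higher at CT22, the order that the brain neuron markers had as well. Nppcl, a natriuretic peptide gene, had the same order, with signals of 1745.5, 921 and 39.3 in the dark and 89.8, 79.5 and 2223.4 after light. The 17 lower genes at CT22 were led by vegfc (-2.44), fem1a (-2.39), LOC100151028 (-2.22) and bicra (-1.88). Their light signals at CT22 were 7.5, 12.8, 39 and 18.5, beside the 13 added to each signal. Neurod6b was at 13.7 in the dark at CT22.

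The night response was set against that of subjective day by a test of the difference itself. It was tried on simulated data, with noise independent between probe sets and no shift shared across an array. Recovery on the real arrays can therefore differ. On the simulated data this test recovered 0% of changes of 1 log2 and 86.5% of those of 2 log2. A lack of calls therefore does not show that the responses were alike. Limma called 0 of 9301 probe sets (0%) for night minus day, with a smallest adjusted p of 1.00 and 296 at an unadjusted p under 0.05; without the CT22 pair it called 1, lower and without a symbol. The mean differences in night and day correlated with r = 0.46 over the 9301 probe sets, which is a description, and the light arrays were above the dark ones in spike-in level at all 3 day times as well. In value, jun differed by 1.45 in night and 2.07 in day, pfkfb4b by 1.91 and 2.43, klf9 by 1.49 and 1.97, sik1 by -1.54 and -2.25 and dusp1 by -1.54 and -2.27.

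**Figure D5:**
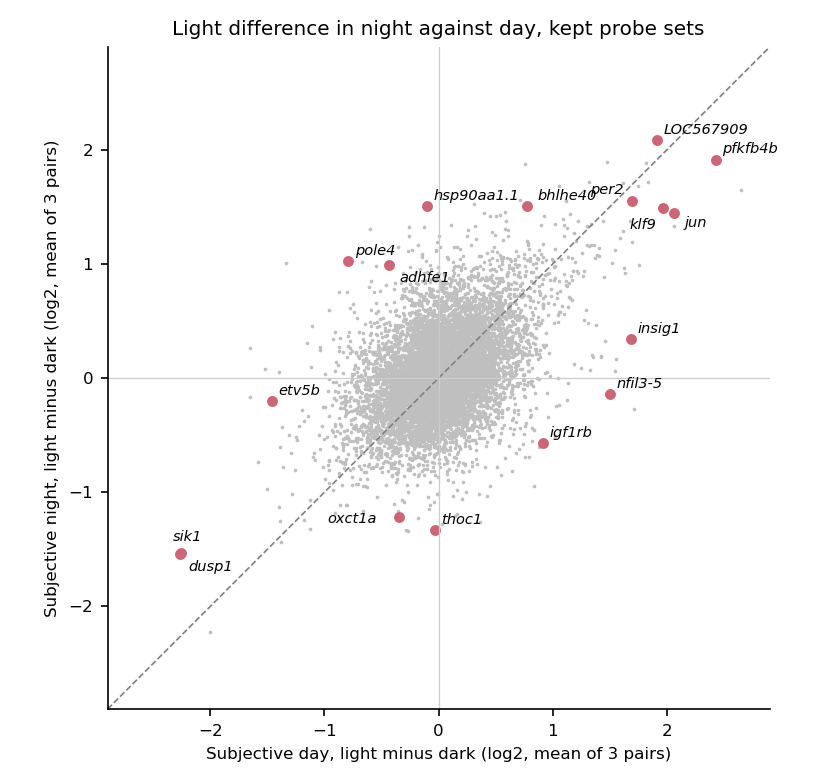
Mean light difference in subjective night against that in subjective day, both in log2(signal + 13) and over 3 pairs, for 9301 kept probe sets (grey) with 17 named genes in red; the dashed line marks equal differences. LOC567909 and per2 lie near the line at upper right. Pfkfb4b, jun and klf9 at upper right and sik1 and dusp1 at lower left lie off it, with the smaller difference in night. Thoc1 and hsp90aa1.1 are near 0 on the day axis. None of these genes was called for night minus day.

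Among the genes with the smallest p for night minus day, which did not pass, etv5b, an ETS factor gene, differed by -0.20 in night and -1.46 in day. Insig1, whose protein holds back sterol synthesis, differed by 0.34 in night and 1.69 in day. Pole4, a DNA polymerase subunit gene, differed by 1.02 and -0.79, adhfe1, a dehydrogenase gene, by 0.99 and -0.44, and igf1rb, a receptor gene for insulin-like growth factor, by -0.57 and 0.92. Thoc1 was at -1.33 in night and -0.03 in day. Oxct1a was at -1.22 and -0.35, and bhlhe40 at 1.51 and 0.78. These pairs of values are not shown to differ.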

How the data were processed

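The 12 arrays were 1-colour Affymetrix zebrafish expression arrays. The deposited values are intensities, 1 MAS5 signal per probe set and array, made with GCOS and MAS5 per the submitters' processing notes, with no versions given. In the deposited table every array had a mean signal of 200.035 to 200.042 after removal of the lowest and highest 2%, so the authors had scaled the arrays alike; no further scaling was applied. Scanner files were not used here, so background correction and slide were not varied. Of 15617 rows, 115 were Affymetrix controls; of the other 15502, 10795 had 1 gene symbol, 135 several and 4572 none. Genes are named from probe sets with 1 symbol, of which 10711 had a match in the gene table and 1 symbol was updated. No genome build is named in the sources used here, so no positions are given.

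Before log2, 13 (the 10th percentile over the whole table) was added, which understates changes of weak probe sets. Probe sets were kept with a mean log2 over the 12 arrays at or above the 40th percentile, 6.16 log2 or a signal of 58.3. This mean includes the light arrays, so a gene low in the dark can be kept through its light values. Mmp9, egr2a, acta1a and hsp90aa1.1, among others, had dark night means of 6.03, 6.03, 5.85 and 5.73 log2, below the filter. They count as positive genes in their lists. The filter left 9301 probe sets for 6025 genes, and a gene was represented by its probe set of highest mean. Limma 3.58.1 (R 4.3.3; eBayes with a trend) was fitted to all 12 arrays with a 6-level time block and a light term each for day and night, with 4 residual degrees of freedom; tests were two-sided with Benjamini-Hochberg adjustment. Nothing says that the pools were replicated, so p-values measure the spread over times and pools; the number of arrays limits the precision. The pairing of arrays comes from the labels' circadian times. Deviations from the group means at the same night time correlated with r of 0.07, -0.11 and -0.04, and at other times with -0.07 to 0.14. The fit was tested on simulated data with 200 changed probe sets. Their noise was independent between probe sets, without shifts shared across an array, so recovery on the real arrays can differ. The fit recovered 39.5% of night changes of 1 log2 and 98% of those of 2 log2, with 6 and 19 false calls. For night minus day it recovered 0% and 86.5%, with 2 and 7 false calls.

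The members and the 29 lists (952 genes, 569 on the array, 432 kept) were chosen with earlier results of these data known. Named were a fixed set of clock, light-response and pineal genes (of which per1b had no kept probe set); called genes, filled to 10 a side by smallest p with 1 sign at all times; the called members or the 2 with the smallest p of each list; the 6 with the smallest p for night minus day; the 4 largest on each side at 1 night time alone; and genes separated by at least 1 log2. Alternatives were the pseudocount, filter, scaling, block (cosine and sine terms of circadian time instead), trend, night arrays alone, spike-in level and each night pair left out. Added after seeing the data were brain neuron or skin markers as a covariate and each day pair left out.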

Additional observations from a re-analysis of the deposited data

Results flagged for a closer look

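In 5 of the named genes the light difference was in 1 direction at all 3 night times and in the opposite direction at all 3 day times. The night minus day difference was 1.815 log2 for pole4, 1.431 for adhfe1, -1.486 for igf1rb, -1.081 for fads2 and 0.51 for chrnb3a. Pole4, adhfe1 and igf1rb were named for their small p in night minus day, so opposite signs in them follow in part from that choice. The difference was tested in limma and none of the 5 passed (smallest adjusted p 1.00). Over all 6025 kept genes, 68 were higher at all night times and lower at all day times, and 60 were the reverse. Groups of 3 arrays were too small for a test of single arrays.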

How the results depend on the processing

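The number of night calls, 4 as reported, was 4 to 6 with a pseudocount of 1 or 50, without a filter or with one at the 60th percentile, with quantile normalization and with brain neuron markers as a covariate. It was 0 with arrays centred on their medians (smallest adjusted p 0.0518), with the 6 night arrays alone (658 at an unadjusted p under 0.05), without a trend, with the spike-in level (616) or with skin markers as a covariate, and without any 1 day pair. With cosine and sine terms of circadian time in place of the time block it was 13. With 1 night pair left out it ran from 0 (CT18) over 2 (CT14) to 260 (CT22). The 260 without CT22 were 121 higher and 139 lower, of 9301 probe sets. Of the higher, 71.1% were positive at CT22 (47.5% of all probe sets), and of the lower 15.1% were negative there (52.6% of all). Of the 17 brain neuron markers, 4 were among the 139 lower and 0 among the 121 higher. For night minus day the count was 0 under each alternative with a value except without CT22, where it was 1. The causes were not tested.

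Reversed directions all concerned genes that were not called. Nfil3-5 was at 0.093 with cosine and sine terms in place of the time block. It was at 0.77 with the spike-in level, 0.043 with brain and 0.36 with skin markers, and -0.66 to 0.28 with 1 pair left out. Exorh was at -0.20, -0.18 and -0.31 with these 3 covariates and -0.57 to 0.57 with 1 pair left out. With the spike-in level npas2 was at -0.36, chrnb3a at -0.045, nkx2.2a at -0.083, aqp8a.1 at -0.79 and fli1 at -0.38. With 1 pair left out the ranges were -0.93 to 0.10 for aanat2 (0.055 without CT22), -0.62 to 0.061 for gnat2 (0.00013 without CT22), -0.058 to 0.99 for nkx2.2a and -0.025 to 1.47 for aqp8a.1. Dropping the filter moved the median of all probe sets from 0.03 to 0.11, with 60.95% positive against 53.6%. The count of list genes called was the same with the probe set of smallest p. Detection calls were not used here, so which weak probe sets were above background is unknown.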

Other observations

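The control probe set for green fluorescent protein, the transgene's reporter, had signals of 23.8, 32.4 and 148 in the dark and 45.7, 114 and 80.1 after light at CT14, CT18 and CT22. It was higher in light at CT14 and CT18 and lower at CT22. Aanat2, whose regulatory regions drive the reporter, had another order of differences (-0.98, 1.09 and -0.89 log2). The reporter signals were low, on both sides of the array medians of 70.31 to 99.48, while aanat2 was at 848 to 4099. Whether the reporter signals were above background is unknown.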
